A study of Mus musculus with 48 samples.

Results

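Tef, Hlf and Nfil3 encode 3 of the 4 transcription factors of the circadian clock that bind the D-box, the other being Dbp. Their transcripts were followed in NIH3T3 cells, a mouse fibroblast line grown to confluence and then synchronized with forskolin, which activates adenylyl cyclase and so brings the clocks of the dish into step. RNA was collected once per hour, at hours 20 to 67 after forskolin, and each of the 48 samples was measured on 1 Affymetrix mouse genome array. All samples were of this 1 line and had received forskolin, so the course held no untreated cells and no replicate arrays at any hour. All probe sets that the array's annotation assigned to Tef, Hlf or Nfil3 were taken, which gave 6 of the 45037 probe sets besides controls. There were 3 for Tef, 2 for Hlf and 1 for Nfil3, and the brightest of each gene is shown where no other is named. In RNA from whole dishes, fewer cells with a transcript and less of it in each cell cannot be told apart, and neither can a lower rhythm per cell and a loss of synchrony between cells.

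Tef, Hlf and Dbp belong to the proline and acidic amino acid-rich family of leucine zipper proteins and activate genes that carry a D-box. Nfil3, also a leucine zipper protein, binds the same element and represses. In liver, Dbp and Tef are known as direct targets of the CLOCK and BMAL1 activators through E-boxes, while Nfil3 is known to be driven through elements of the ROR and REV-ERB nuclear receptors and to peak at the opposite time of day, so that activators and repressor take turns at the D-boxes of Per genes and of other clock and output genes.

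The promoters of the 3 genes are shown because Tef, Hlf and Nfil3 took separate courses in these cells, and that of Per3 because it is the D-box gene whose course was most like that of Tef. Each sequence is the 250 bases before an annotated transcription start in RefSeq, build GRCm38.p6. Capitals mark matches, on either strand, to an E-box (CACGTG), a D-box (TTATGTAA or TTACGTAA), a cyclic AMP response element (TGACGTCA) or the core of a ROR element (TAGGTCA).
Tef first start, chr15:81802423-81802672, plus strand: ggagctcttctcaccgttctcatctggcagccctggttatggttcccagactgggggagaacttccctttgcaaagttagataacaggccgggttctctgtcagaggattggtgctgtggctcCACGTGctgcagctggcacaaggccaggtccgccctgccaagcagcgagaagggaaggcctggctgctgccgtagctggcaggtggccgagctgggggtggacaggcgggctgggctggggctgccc
Tef second start, chr15:81811164-81811413, plus strand: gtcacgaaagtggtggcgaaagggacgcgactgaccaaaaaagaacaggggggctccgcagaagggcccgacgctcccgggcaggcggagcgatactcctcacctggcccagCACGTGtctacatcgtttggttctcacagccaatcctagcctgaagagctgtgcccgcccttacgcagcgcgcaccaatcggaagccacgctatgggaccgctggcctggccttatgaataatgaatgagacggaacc
Hlf, chr11:90390918-90391167, minus strand: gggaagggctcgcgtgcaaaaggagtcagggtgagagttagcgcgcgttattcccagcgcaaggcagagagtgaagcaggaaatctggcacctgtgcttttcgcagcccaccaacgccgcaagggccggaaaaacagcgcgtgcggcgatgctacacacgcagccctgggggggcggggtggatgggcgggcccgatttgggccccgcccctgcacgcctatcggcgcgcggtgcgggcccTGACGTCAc
Nfil3, chr13:52981040-52981289, minus strand: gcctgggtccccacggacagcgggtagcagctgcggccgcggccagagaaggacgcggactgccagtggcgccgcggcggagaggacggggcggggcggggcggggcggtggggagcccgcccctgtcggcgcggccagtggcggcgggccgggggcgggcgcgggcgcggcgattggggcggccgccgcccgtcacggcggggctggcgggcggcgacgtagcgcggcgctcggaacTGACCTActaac
Per3, chr4:151044666-151044915, minus strand: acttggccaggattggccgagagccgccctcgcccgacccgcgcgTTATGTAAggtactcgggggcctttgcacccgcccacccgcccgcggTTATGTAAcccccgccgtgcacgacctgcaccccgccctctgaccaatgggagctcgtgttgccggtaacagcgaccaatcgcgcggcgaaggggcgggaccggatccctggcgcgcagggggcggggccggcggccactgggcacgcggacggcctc
Both Tef starts had an E-box, at bases -127 to -122 and -138 to -133 before the start, and such a match was found in 6.02% of 32851 promoters of that length. Hlf had the cyclic AMP response element at -9 to -2, a match held by 1.55% of the promoters. Nfil3 had a ROR core on the reverse strand at -12 to -6, against 2.23% of the promoters. None of the 3 genes had a D-box in this stretch, and neither had Dbp, whereas Per3 had 2 copies, at -205 to -198 and -158 to -151, against 0.931% of the promoters. These are matches of letters in a window of fixed length, and binding was not measured. The genes lie at chr15:81802673-81826863 (Tef), chr11:90336535-90390917 (Hlf) and chr13:52967209-52982878 (Nfil3), and the Nfil3 start shown is one inside its annotated locus.

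Values are log2 of the authors' normalized intensity, and their scale is arbitrary, so that a level was read within a probe set only. Array medians lay between 6.58 and 6.71. The median of all probe sets was 6.67. All 8 fibroblast marker genes, among them Col1a1, Col1a2 and Vim, exceeded it, and all 10 markers of epithelium, endothelium, leukocytes, muscle, fat and neurons lay below. The difference between the 3′ and 5′ probe sets of β-actin, a measure of RNA quality, had a median of 1.13 and exceeded 1.4 on 10 arrays, at hours 20, 22, 24, 36, 38, 40, 43, 45, 46 and 67. The BioB hybridization control was 0.90 higher on the arrays of hours 52 to 55 than on the rest.

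Tef rose and fell with a daily rhythm, Hlf climbed and then levelled off, and Nfil3 fell through the whole course. Each series was fitted with a 24 h cosine plus a linear trend. By this test, 2 of the 6 probe sets cycled, both of Tef, against 0.293% of all probe sets (limma, adjusted p under 0.05). The linear trend passed for 5 of the 6, against 30.4% of all probe sets, with 4 rises (14.2% of all rose) and 1 fall (16.2% of all fell).

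**Figure D1:**
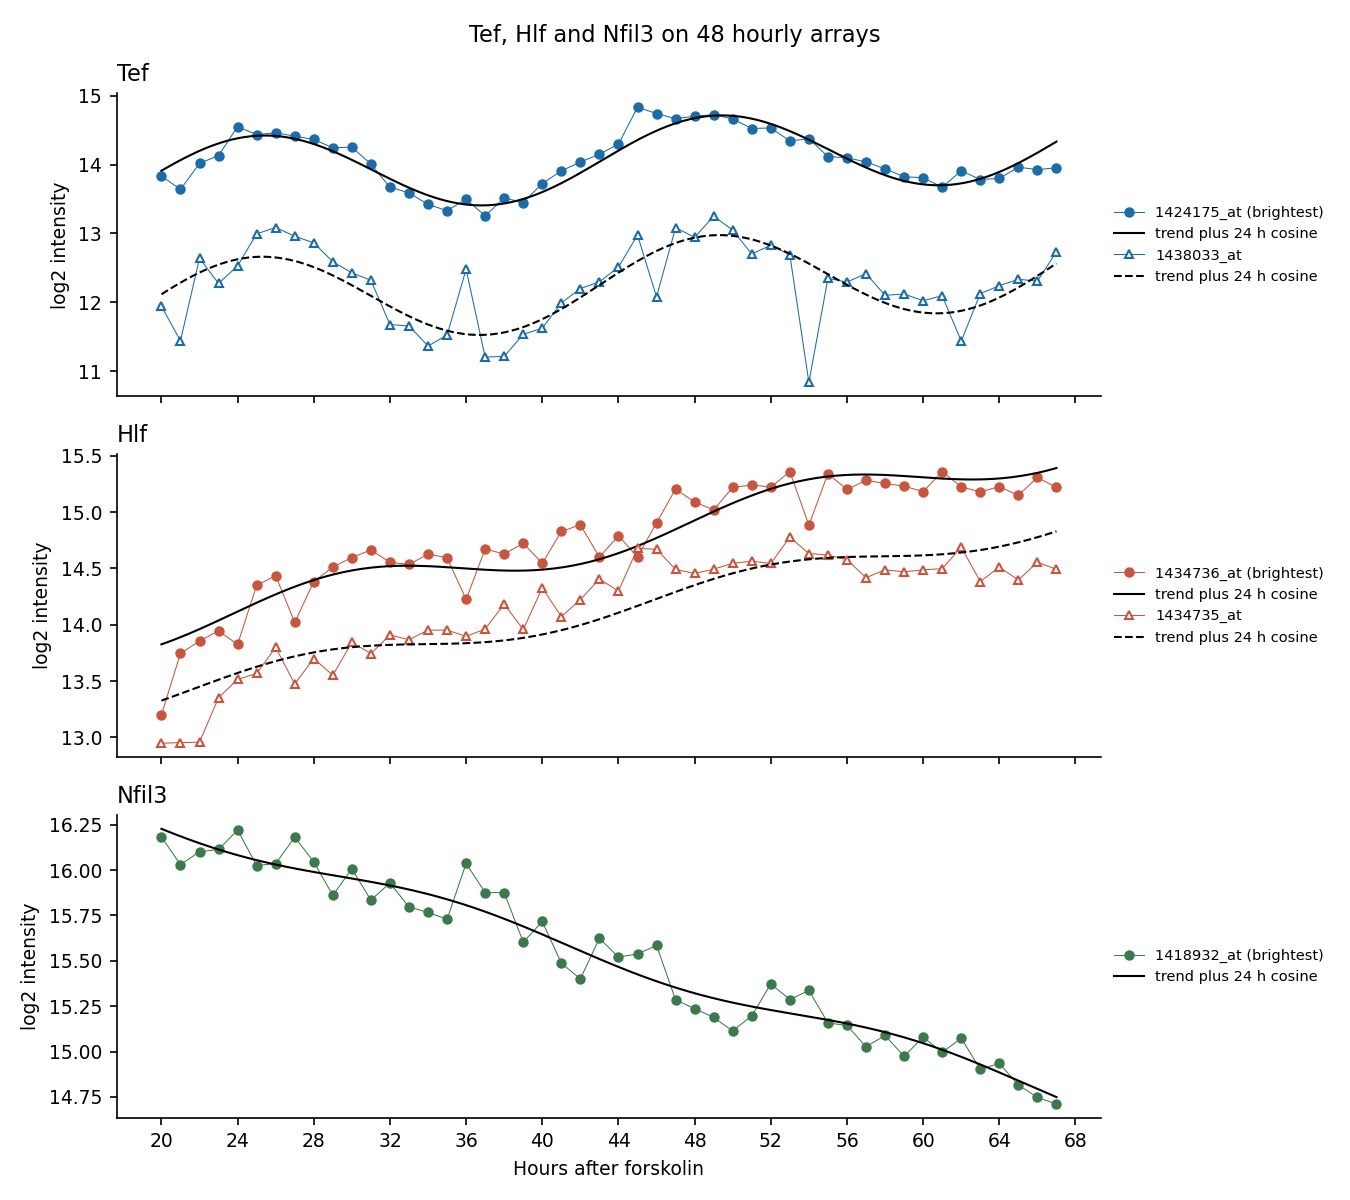
Log2 intensity (vertical axes) against hours after forskolin (horizontal axis) for Tef, Hlf and Nfil3, with 1 array per point. Filled circles are the brightest probe set of each gene, open triangles the second one, and black lines the fitted linear trend plus 24 h cosine; Tef shows highs near hours 25 and 49, Hlf climbs 2.64-fold between its first and last 6 hours, and Nfil3 falls to 0.421 of its level. The dimmest Tef probe set is not drawn.

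Tef stood at a mean of 14.07 on the log2 scale, with a lowest value of 13.26 at hour 37, a median of 14.03 and a highest of 14.84 at hour 45. The 2 cycles are plain in its 6 h means, which were 14.10 ± 0.35 at hours 20 to 25, 14.29 ± 0.16 at hours 26 to 31, 13.46 ± 0.16 at hours 32 to 37 and 13.80 ± 0.28 at hours 38 to 43 (SD, n = 6 arrays each). They were 14.66 ± 0.19, 14.43 ± 0.19, 13.90 ± 0.16 and 13.89 ± 0.08 in the 4 blocks of hours 44 to 67. All 6 arrays of hours 44 to 49, its highest block, were above all 6 of hours 32 to 37, its lowest. These blocks were picked as the highest and lowest of the same series, so their separation is no test of a rhythm. How many of all probe sets separate in this way was not counted. The second low point, near hour 61, was shallower than the first. The fitted amplitude, from mean to peak, was 0.58 ± 0.04 (SE), with a 95% interval of 0.51 to 0.65, and corresponds to a peak 2.23-fold above the trough. The peak fell at hour 25.1 ± 0.22 and the cosine had an R2 of 0.856 in the values left after the trend was removed. The adjusted p was 1.97e-15, the 4th smallest of the 45037. Tef also rose by 0.29 ± 0.04 per 24 h (adjusted p = 3.85e-07).

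A second Tef probe set followed the same course with more scatter. It had a lowest value of 10.83 at hour 54, a median of 12.30 and a highest of 13.25 at hour 49. Its amplitude was 0.65 ± 0.09 with a peak at hour 25.0 ± 0.49 (adjusted p = 9.40e-05), and its series correlated with that of the brightest Tef probe set at r = 0.739 over the 48 arrays after removal of the trends, a description of 2 probe sets on the same arrays. Several single arrays stood off the curve. At hour 36 it read 12.48 beside 11.52 and 11.20 in the hours before and after, and at hour 54 it read 10.83 beside 12.69 and 12.35. The array of hour 36 had a β-actin difference of 2.42, the highest of all, and that of hour 54 lay among the arrays of high BioB; their part in these values was not tested. Its trend of 0.31 ± 0.11 per 24 h passed at an adjusted p of 0.0241, but not without the array of hour 21 (0.0569), nor without hours 20 to 25 (0.212), nor on even hours alone (0.687). The dimmest Tef probe set lay at 5.46, below the median of all probe sets, with a range of 5.44 to 5.71. Its amplitude of 0.02 ± 0.01 did not pass (adjusted p = 0.556).

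Hlf showed a climb rather than a wave. Its lowest value was 13.20 at hour 20, its median 14.81 and its highest 15.36 at hour 61. The 6 h means were 13.82 ± 0.37, 14.44 ± 0.23, 14.54 ± 0.16 and 14.70 ± 0.13 in the 4 blocks of hours 20 to 43, and 14.94 ± 0.22, 15.21 ± 0.17, 15.25 ± 0.06 and 15.22 ± 0.05 in those of hours 44 to 67 (SD, n = 6 each). The last 3 blocks differed by less than their SD. The last 6 arrays averaged 2.64-fold above the first 6, and the groups did not overlap. The share of all probe sets without such overlap was not counted, and 30.4% of all had a called trend. The trend was 0.81 ± 0.05 per 24 h (95% interval 0.70 to 0.92, adjusted p = 2.28e-17). The other Hlf probe set gave nearly the same trend, 0.78 ± 0.06 per 24 h (adjusted p = 2.11e-14), with 12.95 at hour 20 as its lowest value, a median of 14.36 and 14.78 at hour 53 as its highest.

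A 24 h wave in Hlf was smaller and uncertain. The brightest probe set had an amplitude of 0.17 ± 0.04 (95% interval 0.09 to 0.26), a 1.27-fold ratio of peak to trough, with a peak at hour 29.8 ± 0.93, and an adjusted p of 0.0803. The second had 0.12 ± 0.05, a peak at hour 27.8 ± 1.60 and an adjusted p of 0.602. The first passed without the array of hour 36 (adjusted p = 0.0469), 41 (0.0425), 42 (0.0349) or 54 (0.0292), each left out alone. The brightest Hlf probe set fell below its neighbours on several arrays, reading 14.23 at hour 36 beside 14.60 and 14.67, and 14.60 at hour 45 beside 14.79 and 14.91. The β-actin difference on those arrays was 2.42 and 2.22. It also fell at hour 27 (14.02 beside 14.44 and 14.38) and hour 54 (14.88 beside 15.36 and 15.34). There the β-actin difference was 1.22 and 1.32. The second probe set read 13.90 at hour 36 beside 13.95 and 13.96, and 14.68 at hour 45 beside 14.30 and 14.67. With that difference as a covariate the amplitude was 0.13 (adjusted p = 0.286), and without the 10 arrays over 1.4 it was 0.11 (0.442). The trend was 0.76 per 24 h in the one fit and 0.72 in the other, and passed in both.

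Nfil3, the repressor, fell almost without interruption. Its highest value was 16.22 at hour 24, its median 15.53 and its lowest 14.71 at hour 67, the last array. From block to block of 6 h its mean was 16.11 ± 0.08, 15.99 ± 0.13, 15.86 ± 0.12, 15.62 ± 0.17, 15.39 ± 0.17, 15.24 ± 0.10, 15.05 ± 0.06 and 14.86 ± 0.13 (SD, n = 6 each). Every block was thus lower than the one before it, and the last 6 arrays all lay under the first 6, by 1.25 on average, which leaves 0.421 of the first level. The share of all probe sets with such a separation was not counted. The trend was -0.76 ± 0.03 per 24 h (95% interval -0.82 to -0.70, adjusted p = 3.61e-26), the 34th smallest p of all probe sets. The 24 h amplitude was 0.05 ± 0.02, with an interval of 0.01 to 0.10 and an adjusted p of 0.583. The peak of this small wave was fitted at hour 35.3 ± 1.56. It read 16.04 at hour 36, the array of the highest β-actin difference, beside 15.73 and 15.88, and with that difference as a covariate its trend was -0.73.

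**Figure D2:**
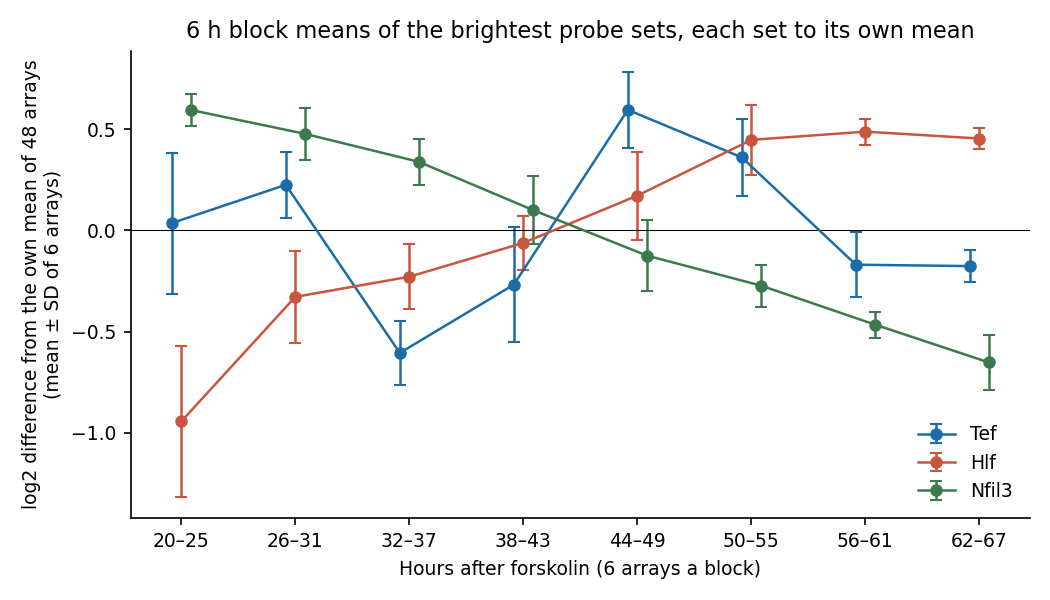
Mean ± SD of 6 hourly arrays (vertical axis, log2 difference from the gene's own mean over the 48 arrays) for 8 successive blocks of hours after forskolin (horizontal axis), brightest probe sets of Tef, Hlf and Nfil3. Tef shows 2 highs and 2 lows, Hlf rises until hours 50 to 55 and stays level, and Nfil3 falls in every block.

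The factors were then compared in pairs, with Dbp, the fourth D-box factor, included. Dbp had an amplitude of 0.73 ± 0.04, a peak at hour 25.6 and a trend of 0.80 per 24 h. The shape of the 24 h wave was tested in the difference of the scaled, detrended series with 100000 permutations of the hours, and p-values were adjusted over the 6 pairs. The smallest p this can give is 1e-05. The p is for scaled series, so the differences in log2 amplitude and peak hour given beside it are separate estimates with intervals and no test. Tef and Hlf differed (adjusted p = 1.5e-05), with an amplitude 0.41 larger in Tef (95% interval 0.30 to 0.51) and a peak that came earlier (Tef minus Hlf -4.63 h, interval -6.56 to -2.71 h). Tef and Nfil3 differed as well (1.5e-05), and the fitted amplitude was 0.53 larger in Tef (0.43 to 0.62). Dbp differed from Hlf and from Nfil3 at the same adjusted p. Between Tef and Dbp the permutation test gave an adjusted p of 0.0568. The fitted amplitude was 0.15 smaller in Tef than in Dbp (interval of Tef minus Dbp -0.22 to -0.07), and the peak was earlier by 0.52 h (interval of the difference -0.95 to -0.09 h). With the mean of all probe sets of each gene in place of the brightest, Tef and Dbp did differ (0.00131). Hlf and Nfil3 differed at an adjusted p of 0.0440, but it was 0.057 with the β-actin covariate and 0.246 once the 10 arrays over 1.4 were dropped. The fitted amplitude was 0.12 larger in Hlf (0.03 to 0.22).

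The trends set Nfil3 apart from each of the activators. Hlf minus Nfil3 changed by 1.57 per 24 h (95% interval 1.43 to 1.71), Tef minus Nfil3 by 1.05 (0.97 to 1.14) and Nfil3 minus Dbp by -1.56 (-1.67 to -1.45). The trends of Hlf and Dbp differed by 0.01 per 24 h, with an interval of -0.13 to 0.15. Tef rose by less than Dbp, the difference being -0.51 per 24 h (-0.60 to -0.41), and by less than Hlf, at -0.52 (-0.65 to -0.39). These slope differences are given with their intervals and without a test.

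**Figure D3:**
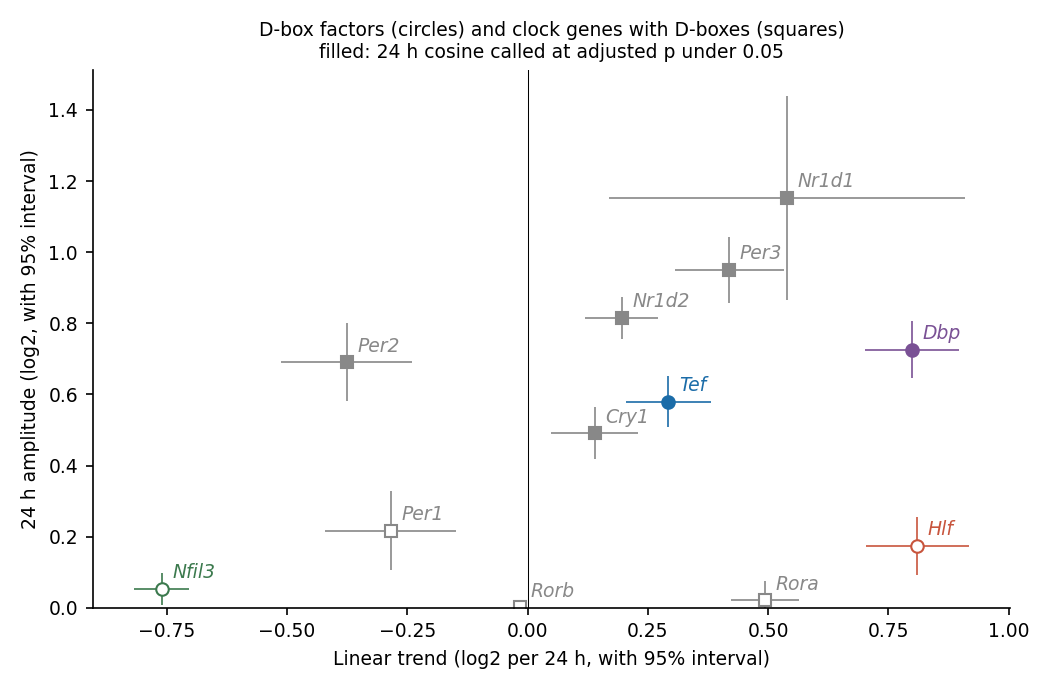
Fitted 24 h amplitude (vertical axis, log2) against linear trend (horizontal axis, log2 per 24 h) for the 4 D-box factors (circles) and 8 clock genes known to be regulated through D-boxes (squares), brightest probe sets, bars being 95% intervals and filled symbols a called 24 h cosine. Of the squares only Per3 had a D-box match in the promoter stretch searched here, and for Per2 no promoter was searched. Tef (0.58) sits among the cycling genes, whereas Hlf (0.17) and Nfil3 (0.05) lie low and at opposite ends of the trend axis, 0.81 and -0.76.

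The course held 2 cycles, hours 44 to 67 and hours 20 to 43, and each gene was compared between them. Hlf averaged 15.16 ± 0.19 at hours 44 to 67 and 14.37 ± 0.41 at hours 20 to 43 (SD, n = 24 each), and the later array was higher at all 24 matched hours of the cycle. The difference of 0.78 passed a limma test blocked by hour of the cycle (adjusted p = 6.17e-10), as did 23.9% of all probe sets. Nfil3 averaged 15.14 ± 0.23 at hours 44 to 67 and 15.90 ± 0.22 at hours 20 to 43, and was higher in the later cycle at 0 of 24 hours (difference -0.76, adjusted p = 4.94e-16). Tef averaged 14.22 ± 0.37 and 13.92 ± 0.40 in the later and the earlier cycle. It was higher in the later one at 22 of 24 hours (difference 0.31, adjusted p = 0.000247).

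The slope within each cycle was compared in a model with 1 common cosine, chosen after the courses had been seen. For the second Hlf probe set it was 0.15 ± 0.11 per 24 h in hours 44 to 67 and 1.48 ± 0.11 in hours 20 to 43 (adjusted p of the difference 4.47e-11, where 7.42% of all probe sets passed). For the brightest Hlf probe set it was 0.65 ± 0.15 in the later cycle and 1.41 ± 0.15 in the earlier one (0.000842). Both Hlf probe sets thus climbed less in the later cycle. For Nfil3 the slopes were -0.83 ± 0.10 and -0.75 ± 0.10 in the later and the earlier cycle (0.568). The brightest Tef probe set had -0.06 ± 0.14 in the later and 0.45 ± 0.14 in the earlier cycle (0.0176). The second Tef probe set did not share this difference, with 0.62 ± 0.39 in the later and 0.55 ± 0.39 in the earlier cycle (0.901). The model holds the wave equal in both cycles, so a change of the wave could enter these slopes. Taken alone, the later slope passed for the brightest Hlf probe set (0.00328) and for Nfil3 (1.74e-07) only, 2 of the 6 probe sets, against 9.62% of all.

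**Figure D4:**
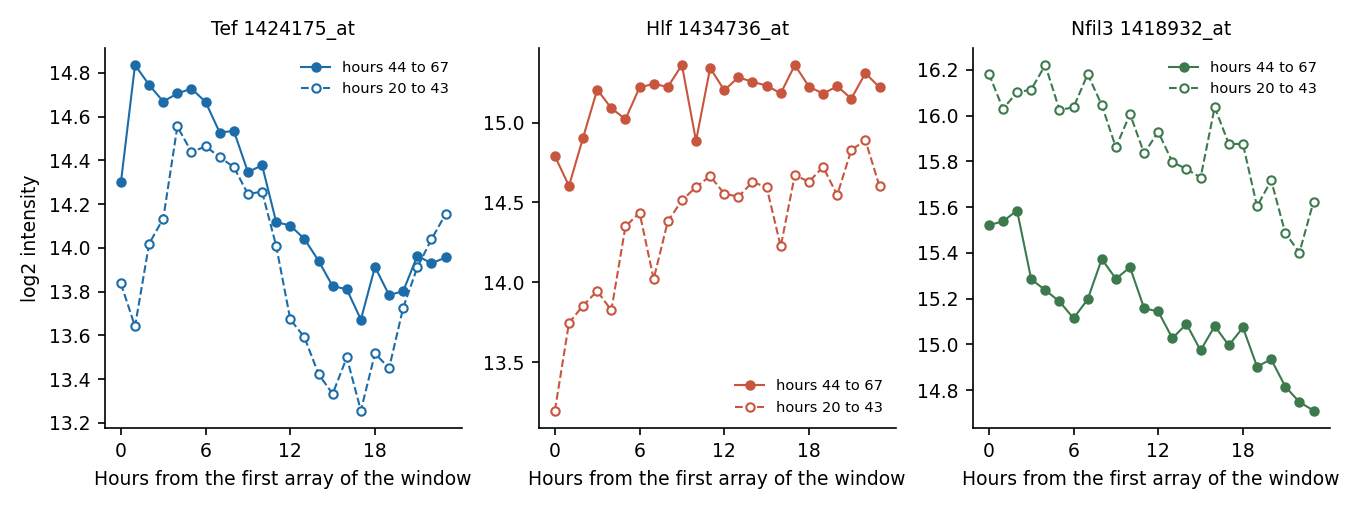
Log2 intensity (vertical axes) of the brightest probe sets of Tef, Hlf and Nfil3 in hours 44 to 67 (filled, solid) and hours 20 to 43 (open, dashed), against hours from the first array of each window (horizontal axes). Hlf lies higher and Nfil3 lower in the later window at all 24 matched hours, and Tef is higher in the later window at 22 of 24.

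Whether the 24 h wave itself differed between the cycles was tested by its interaction with the window, a test of amplitude and peak hour together that 49.0% of all probe sets passed. That share was unstable: the test called 22085 probe sets here, but 6682 after quantile normalization, 1715 after centring on array medians, 819 with a term for hours 52 to 55 and 352 at best-fit periods. Tef had an amplitude of 0.55 ± 0.06 in hours 44 to 67 and 0.55 ± 0.06 in hours 20 to 43, with peaks at the clock equivalent of hours 25.0 and 25.2 (adjusted p = 0.939). When each window was given its own trend, the result for Tef was otherwise, with 0.34 ± 0.05 in the later and 0.76 ± 0.05 in the earlier window (adjusted p = 0.0116, where 37.2% of all probe sets passed). Both Hlf probe sets passed the first form of the test, though the pass does not say whether amplitude or peak hour differed. The brightest had an amplitude of 0.27 ± 0.07 and a peak at the clock equivalent of hour 27.1 in hours 44 to 67, against 0.21 ± 0.05 and hour 30.7 in hours 20 to 43 (0.0268). The other had 0.30 ± 0.07 and hour 26.0 in the later window, against 0.13 ± 0.06 and hour 34.4 in the earlier one (0.00196). With a trend for each window neither passed (0.396 and 0.434) and the difference turned round. The brightest Hlf probe set also missed the threshold without the array of hour 24 (0.0513) or of hour 47 (0.0587). Nfil3 had 0.06 ± 0.04 in the later and 0.06 ± 0.04 in the earlier window (0.935).

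Periods were also left free between 6 and 30 h, and a probe set was called when this fit and Fisher's G-test both passed at a q-value of 0.05 with a period near 24 h. Of the 6 probe sets 2 were called, again those of Tef, against 0.198% of all. The fitted periods were 24.0 h for the brightest Tef probe set and 22.5 h for the second. Hlf was fitted best at 21.8 and 21.2 h and Nfil3 at 8.9 h, and for these 3 probe sets the G-test peaked at 48 h, the length of the record. Both Tef probe sets were called in all 6 settings of this test, which called 27 to 255 probe sets in all.

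Genes known to be regulated through D-boxes were described from a list of 8 clock genes. Of the 8 genes, 5 cycled, against 0.293% of all probe sets (limma, adjusted p under 0.05). The median amplitude was 0.59 over the list and 0.02 over all probe sets. The list was chosen with earlier results of these data known. Per3 had an amplitude of 0.95 ± 0.05 and a peak at hour 24.6, and Per2, also a repressor of CLOCK and BMAL1, had 0.69 ± 0.05 and a peak at hour 26.5. Cry1, a later-acting repressor, had 0.49 ± 0.04 and a peak at hour 27.9. Nr1d2 and Nr1d1, which encode the REV-ERB receptors, had 0.82 ± 0.03 at hour 22.3 and 1.15 ± 0.14 at hour 21.8. Per1 did not pass at 0.22 ± 0.05 (adjusted p = 0.138), nor did the ROR genes Rora (0.02 ± 0.03) and Rorb, whose mean of 5.67 was below the median of all probe sets. By trend, 5 of the 8 rose and 3 fell, against 14.2% and 16.2% of all probe sets. Rora rose by 0.49 per 24 h, and Per2 and Per1 fell by 0.38 and 0.28 per 24 h. The other fall was that of the dim Rorb, by 0.02 per 24 h.

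Output genes that D-box factors are known for in liver and pituitary were listed as well. Of 9 such genes 7 were measured, and 0 of them cycled (limma, adjusted p under 0.05), none reaching an unadjusted p of 0.05. With 0.293% of all probe sets cycling, a count of 0 among 7 is near the background. Their median amplitude was 0.00, against 0.02 over all probe sets. Of the 7, 5 lay below the median of all probe sets, among them the xenobiotic receptor Nr1i3 (5.46), the bile acid enzyme Cyp7a1 (5.51), the cytochrome Cyp2b10 (5.56), the plasma protein Alb (5.43) and the thyrotropin subunit Tshb (5.41). The other two were Alas1, which makes the first precursor of heme, and Pdxk, the kinase that activates vitamin B6. Both rose, by 0.19 and 0.15 per 24 h, and their 24 h amplitudes were 0.02 ± 0.03 and 0.05 ± 0.03.

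Among the 11 genes of the E-box loop 4 cycled, against 0.293% of all probe sets. They were Per2, Cry1, Cry2 (0.37 ± 0.06, peak at hour 25.7) and Npas2 (0.61 ± 0.10, peak at hour 37.7). Bmal1 had 0.16 ± 0.04 with a peak at hour 37.3 and did not pass (adjusted p = 0.0780). The list's median amplitude was 0.16, and 2 of its genes rose and 5 fell, against 14.2% and 16.2% of all probe sets. Of the 4 measured receptors that act on ROR elements, 2 cycled, Nr1d1 and Nr1d2, while 3 rose and 1 fell by trend. The shares of all probe sets are the same as for the E-box loop. In the C/EBP group, relatives of the leucine zipper factors, 5 of 6 genes were measured and 0 cycled, near the 0.293% of all probe sets, the smallest unadjusted p being 0.0109, for Ddit3. Cebpb and Cebpd fell by 0.52 and 0.47 per 24 h, and Ddit3 and Cebpg rose by 0.38 and 0.08.

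The genes whose courses were most like those of the 3 factors were found by Pearson's r of the detrended log2 values over the 48 arrays, among 19213 probe sets with 1 gene symbol and a mean above the median. All points share the same arrays, so r is a description. The 6 most like Tef were Sphk2 (0.937), which makes sphingosine 1-phosphate and whose annotated locus overlaps that of Dbp, then Per3 (0.925), Dbp (0.922), Per2 (0.846), Cry2 (0.784) and Nr1d2 (0.635). The 4 most unlike were Ier5 (-0.714), the endoplasmic reticulum chaperones Hspa5 (-0.684) and Hyou1 (-0.611), and the dynein light chain Dynll1 (-0.565). Of these, Ier5, Hspa5 and Hyou1 had called 24 h waves with peaks at hours 35.7, 37.1 and 38.4 and amplitudes of 0.17, 0.08 and 0.15.

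For Hlf the nearest were Vps26a (0.862), a retromer subunit, Nceh1 (0.851), Igf1 (0.827), the insulin-like growth factor, Ostm1 (0.825), Cdo1 (0.822), which oxidizes cysteine, and Sc5d (0.821), an enzyme of cholesterol synthesis. The second Hlf probe set stood at 0.572 with the brightest, lower than all of these nearest genes. Only a straight line was removed before r was taken, and the part of the β-actin difference in these values was not tested. The farthest were Bbs12 (-0.809), Supt20 (-0.783), Ddx11 (-0.780) and Col20a1 (-0.771). For Nfil3 the nearest were Steap1 (0.797), Tgfbi (0.795), a matrix protein induced by TGF-β, Traf3ip2 (0.775), Pdk3 (0.768), Rnf19b (0.756) and Col4a1 (0.755), and the farthest were Bnc2 (-0.775), Zbtb26 (-0.732), Aff4 (-0.728) and Sulf2 (-0.718). Of these 20 genes only Col20a1 had a called 24 h wave (adjusted p = 0.0396), and Dbp stood at 0.250 with Hlf and -0.207 with Nfil3. The 3 factors were hardly alike among themselves, with r of 0.203 between Tef and Hlf, -0.144 between Tef and Nfil3, and -0.216 between Hlf and Nfil3.

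Because the course was sampled every hour, coarser sampling could be mimicked with the same arrays. From every 2nd array the Tef amplitude was 0.57 on even hours (adjusted p = 7.99e-07) and 0.59 on odd hours (0.00011). From every 4th array, 12 arrays in all, it was 0.58, 0.64, 0.56 and 0.55 with a first hour of 20, 21, 22 and 23. In these 4 settings the adjusted p was 0.0702, 0.942, 1 and 0.459, although the unadjusted p was 2.94e-06, 0.000568, 0.000217 and 7.14e-05. The size of the Tef rhythm was thus nearly the same in every thinned course, while its call was lost at 4 h sampling, where 0, 0, 0 and 3 of all 45037 probe sets were called. Hlf ranged from 0.07 to 0.25 in those 4 settings and was called in none of them (unadjusted p 0.0325 to 0.678).

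**Figure D5:**
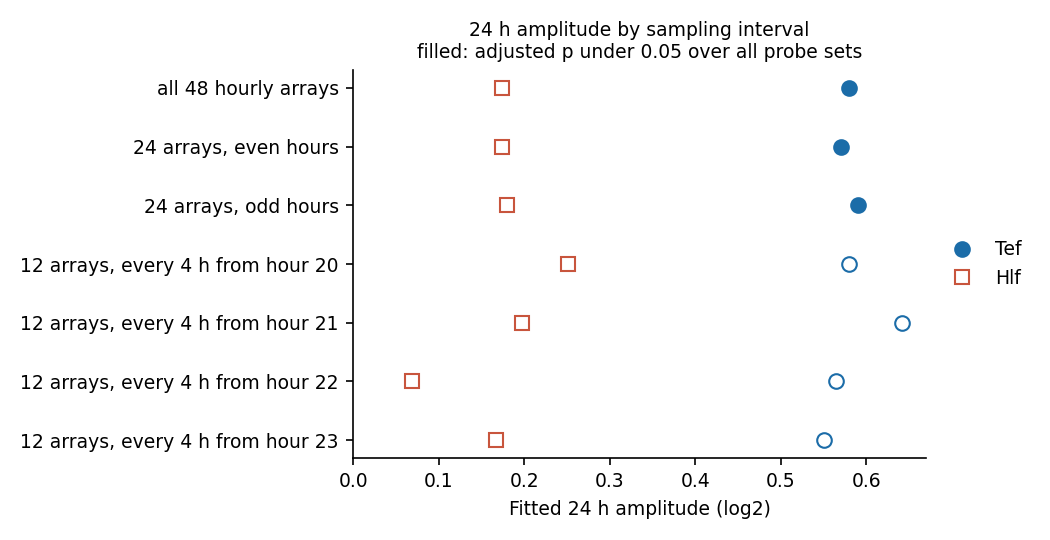
Fitted 24 h amplitude (horizontal axis, log2) of Tef (circles) and Hlf (squares) from all 48 arrays, 24 arrays or 12 arrays (rows), with filled symbols for an adjusted p under 0.05 over all probe sets. Tef stays between 0.55 and 0.64 in every row and is filled in the upper 3 rows only, whereas Hlf spreads between 0.07 and 0.25.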

How the data were processed

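The values were the authors' normalized intensity per probe set, deposited on a linear scale. The methods name GCRMA for expression values and the submitters' processing notes name MAS5, with versions not given in the sources used here. Such normalization brings arrays to a similar level, so a change shared by most transcripts would not show. Values were taken to log2 with no added constant and no filter. The hour of each array came from its title, since the treatment protocol gives 20 h for all. limma 3.58.1 in R 4.3.3 fitted a 24 h cosine and a linear trend to all 45037 probe sets, with Benjamini-Hochberg adjustment over all of them at 0.05. Windows were compared by an interaction with the cosine. Free periods of 6 to 30 h in steps of 0.1 h used 1000000 Gaussian null series, with Storey q-values. COSOPT, named in the methods, was not run. Hours were treated as independent samples, so p-values measure the spread between single arrays. Python 3.11.15, numpy 2.4.6 and scipy 1.17.1 were used, and the fits were tested on simulated data. The rule for named genes took all probe sets of Tef, Hlf and Nfil3, the listed genes by their brightest probe set (D-box factors, D-box clock and output genes, E-box loop, ROR-element receptors, C/EBP group) and, for each factor, the 6 genes of highest and the 4 of lowest correlation. The members and lists were chosen with earlier results of these data known. Cyp2a5, Por and Cebpe were not analysed here. Alternatives were other normalizations, scales, filters, trends, periods and arrays left out.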

Additional observations from a re-analysis of the deposited data

Results flagged for a closer look

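Of the values compared between hours 44 to 67 and hours 20 to 43, 5 differed by a test of the difference itself. The 24 h cosine differed for both Hlf probe sets, the brightest (adjusted p = 0.0268) and the second (0.00196), in a test that 49.0% of all probe sets passed, 22085 in number, but 1715 after centring on array medians and 819 with a term for hours 52 to 55. The brightest Hlf probe set did not pass under quantile normalization (0.0783), median centring (0.136), linear intensities (0.235) or a trend for each window (0.396). The slope differed for the brightest Tef probe set (0.0176) and for both Hlf probe sets (0.000842 for the brightest and 4.47e-11 for the second). It did not differ for the second Tef probe set (0.901). Of all probe sets 7.42% passed this test. The mean β-actin difference was 1.2 in hours 44 to 67 and 1.3 in hours 20 to 43. With that difference as a covariate the cosine test gave 0.00223 for both Hlf probe sets, and without the 10 arrays over 1.4 it gave 0.0145 for the brightest and 0.00592 for the second. For the slopes its part was not tested.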

How the results depend on the processing

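The trends of the brightest Hlf probe set and of Nfil3, and the cosine of the brightest Tef probe set, kept their direction and call in every setting run on at least 24 arrays. The count of cycling probe sets, 2, was 1 on even hours and 0 in each of the 4 settings of every 4th hour, and ranged over 2 to 3 with single arrays left out. The count of trends, 5, ranged over 4 to 5 with single arrays left out and was 2 for the slope of hours 44 to 67 alone, which 9.62% of all probe sets passed. The count whose cosine differed between windows, 2, was 1 under quantile normalization, centring on array medians, linear intensities, probe sets above the median only, a term for hours 52 to 55 or a trend for each window, 0 at best-fit periods, and 1 to 2 with single arrays left out. With a trend for each window the later minus earlier amplitude turned to -0.415 for Tef, -0.1314 for the brightest Hlf probe set and -0.109 for the second. The brightest Hlf probe set passed the 24 h test with linear intensities (0.0314) and with probe sets above the median only (0.0443). It also passed at its best-fit period of 21.8 h (0.00814), where the p took no account of the search over periods. That setting called 2249 probe sets in all, against 132 at 24 h. Of the 6 pairs of D-box factors 4 to 6 differed with single arrays left out. For Hlf and Nfil3 the adjusted p then ran up to 0.0845 and passed 0.05 for 20 arrays, those of hours 20, 25, 26, 29, 31, 36, 37, 38, 40, 43, 47, 48, 49, 50, 51, 55, 60, 62, 63 and 64. For Tef and Dbp it fell under 0.05 for those of hours 21, 22, 23, 28, 30, 54, 57, 65 and 67, down to 0.00992. The causes were not tested. With the 2 windows paired by hour of the cycle, 4 of the 6 probe sets differed, the trend of the second Tef probe set not passing. The number of arrays limits all of these values, and a signal near the floor, as for the dimmest Tef probe set, cannot show a rhythm.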

Other observations

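Without removal of the trend, a choice made after seeing the data, Nceh1, Vps26a, Ostm1 and Igf1 stayed among the genes nearest to Hlf. For Nfil3 only Tgfbi stayed, and the farthest genes of both changed. Hlf was then nearest to Nceh1 (r = 0.972), Vps26a (0.966), Ostm1 (0.964), Igf1 (0.962), Mettl7a1 (0.959) and Gsta4 (0.955), a glutathione transferase, and farthest from Rrm2 (-0.955), which supplies deoxynucleotides for DNA synthesis, Diras2 (-0.952), the DNA repair gene Brca1 (-0.944) and the mitotic kinesin Kif2c (-0.944). Nfil3 was nearest to Tgfbi (0.989), Ecm1 (0.982), Rasl11a (0.980), the immediate early receptor gene Nr4a1 (0.978), Phlda1 (0.977) and Smoc1 (0.976), and farthest from Ogn (-0.977), Ccbe1 (-0.973), Dhrs3 (-0.972) and Mtus1 (-0.970). Between Hlf and Nfil3 r was -0.891. For Tef the 6 nearest were the same genes as after detrending, led by Per3 (0.924). Series that climb or fall steadily correlate strongly with any other such series, and 30.4% of all probe sets had a called trend, so these values are descriptions.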
